A study of Homo sapiens with 16 samples.

Results

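The 9 genes described here are the transcription factor NRF2 (*NFE2L2*), its repressor *KEAP1*, and 7 antioxidant or detoxifying genes known as NRF2 targets, *NQO1*, *TXNRD1*, *TXN*, *SRXN1*, *OSGIN1*, *AKR1C1* and *AKR1B10*. They were taken by symbol from a table of 25369 genes, and all 9 had a row. NRF2 is a basic leucine zipper factor. In unstressed cells KEAP1 binds it and delivers it to a CUL3 ubiquitin ligase, so that the protein is degraded continuously. Oxidants and electrophiles modify cysteines of KEAP1, newly made NRF2 then escapes, pairs with a small MAF protein and binds antioxidant response elements. Much of this control acts on the protein, which RNA-seq does not measure.

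The RNA came from TPC1 and K1 (labelled K1 (GLAG-66)), established human papillary thyroid carcinoma lines with wild type p53. Cells of each line received vehicle (0.2% DMSO), 10 µM Nutlin-3a (nutlin from here on), which frees p53 from its repressor MDM2, 25 µM GSK2830371, which blocks the phosphatase PPM1D, or both drugs, for 24 h. Each of the 8 groups holds 2 libraries of strand-specific poly(A)+ RNA, which makes 16 in all, and the lines grew in different media (RPMI for TPC1, DMEM for K1). Columns of TPC1 are numbered 1 and 3 and those of K1 are numbered 1 and 2. A line is a single population of cells. The study describes its replicates in general as independent preparations, which the sample labels do not state, and the p values measure the spread between these libraries.

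TPC1 libraries hold 30789887 to 76648552 counts and K1 libraries 28888686 to 37161241. Levels are given as CPM, which are counts brought to a common library size, with TMM scaling over the 16 libraries. *CDKN1A*, the p53 target that encodes p21, served as the check that nutlin acted. Its mean level was 138 CPM with DMSO and 6908 CPM with nutlin in TPC1, and 113 and 1011 CPM in K1. The thyroid genes *TG*, *PAX8* and *FOXE1* and the keratins *KRT8* and *KRT18* exceeded 1 CPM in a library of both lines, *TSHR* had no count in either, *NKX2-1* had none in TPC1, and none of 3 endothelial markers reached 1 CPM. Among 5 fibroblast markers, *COL1A1* and *LUM* exceeded 1 CPM in a library of both lines and *PDGFRA* in K1, while *DCN* had no count in TPC1. Summed, these 5 gave 2.16 to 8.85 CPM across TPC1 libraries and 4.14 to 9.22 CPM across those of K1. Of 4 leukocyte markers, *CD3E* had no count in either line, and *PTPRC* had none in TPC1 and 0 to 2 counts in K1. *CD68* exceeded 1 CPM in both lines and *CD14* in K1. The summed level of the 4 was 33.7 to 75.1 CPM across TPC1 libraries and 57.9 to 80.1 CPM across those of K1. *CD68* alone gave 33.3 to 75.0 CPM in TPC1 and 54.3 to 76.2 CPM in K1. In bulk RNA, fewer cells of a kind and less RNA per cell cannot be told apart.

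NRF2 targets are recognised by the antioxidant response element, so the letters before their start sites were examined before their levels. The windows run from 600 bases before to 50 bases after the start of the canonical transcript in the GRCh37 annotation. A core motif, TGACNNNGC, and a stricter one, TGANTCAGC, were searched on both strands. A match of the stricter motif also holds the core motif where the base after TGA is C. Where that base is C or G, as in every stricter match among the 9 genes, it holds the AP-1 heptamer TGACTCA or TGAGTCA. These letters thus do not separate the factors that could bind. Of 18876 windows of the same length, 24.5% held the core motif and 1.96% the stricter one. Among the 9 genes, *NQO1*, *SRXN1* and *OSGIN1* held the stricter motif, *TXNRD1* and *TXN* held the core motif alone, and *NFE2L2*, *KEAP1*, *AKR1C1* and *AKR1B10* held neither in this window.

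The 3 matches of the stricter motif and the upstream match in *TXNRD1* are shown because these genes differ in how they moved. Capitals mark the motif, and each stretch reads 5′ to 3′ on the strand that carries it.
NQO1, chr16:69760900-69760928, minus strand: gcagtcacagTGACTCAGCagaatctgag
SRXN1, chr20:634098-634126, minus strand: aaactcacccTGAGTCAGCccgcccgggc
OSGIN1, chr16:83986736-83986764, minus strand: ttcataagcgTGAGTCAGCaggggcccgt
TXNRD1, chr12:104609448-104609476, plus strand: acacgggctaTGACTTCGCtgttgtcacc
The match of *NQO1* (gene at chr16:69740899-69760571, minus strand) spans bases −455 to −447 from the start, that of *SRXN1* (chr20:627259-633844, minus strand) −272 to −264, and that of *OSGIN1* (chr16:83964916-83999937, plus strand) −99 to −91 on the strand opposite to the gene. *TXNRD1* (chr12:104609557-104744085, plus strand) has core matches from −99 and from −8. All shown lie before the first exon of the canonical transcript, and that of *OSGIN1* is inside the span of the gene, since longer transcripts start upstream. The matches are a description of letters, and no binding was measured here.

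**Figure D1:**
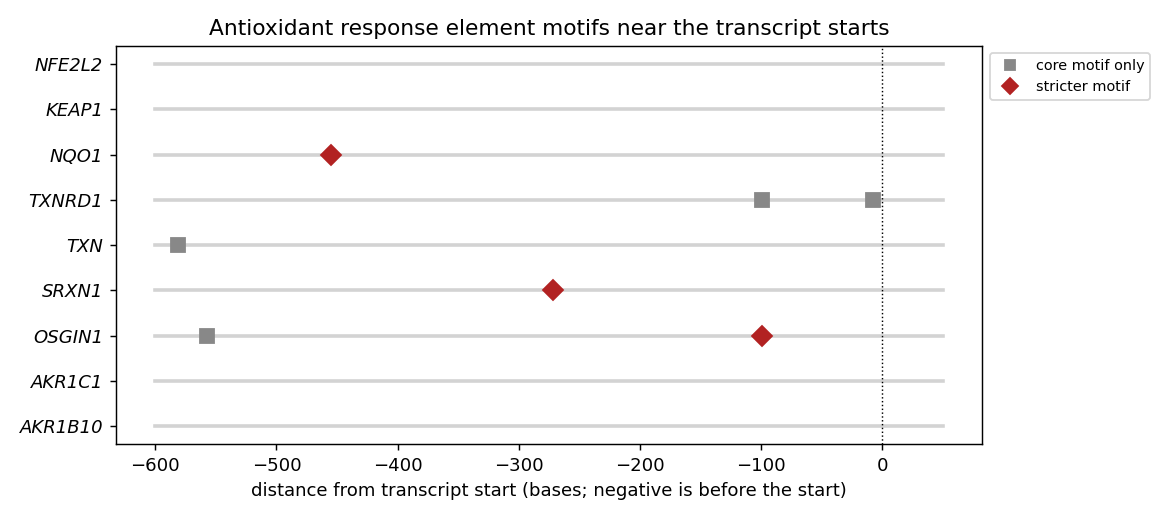
Positions of the motifs around the canonical transcript start of each gene, with the distance from the start in bases on the x axis and 1 line per gene. Diamonds are matches of the stricter motif and squares matches of the core motif alone. Diamonds stand on 3 genes, and 4 carry no mark.

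A comparison was called where edgeR's quasi-likelihood test gave an adjusted p (Benjamini-Hochberg over all genes tested) under 0.05 and the fold change exceeded 1.5. "Raised" and "lowered" are used for called genes. Values after ± are standard errors for log2 fold changes. With 2 libraries a group, groups that do not overlap are common by construction and carry no test here.

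Levels with DMSO can be compared between genes per kilobase of canonical transcript. In TPC1 the order of mean level in CPM per kilobase was *TXN* (383), *NQO1* (133), *TXNRD1* (84.6), *SRXN1* (49.9), *KEAP1* (49.7), *NFE2L2* (44.5), *OSGIN1* (8.67), *AKR1B10* (0.55) and *AKR1C1* (0.0168). Of these neighbours, *SRXN1* and *KEAP1* overlapped between libraries. In K1 the order was *TXN* (227), *TXNRD1* (80.7), *NQO1* (70.9), *SRXN1* (66.6), *NFE2L2* (37.6), *KEAP1* (35.7), *OSGIN1* (8.53), *AKR1C1* (1.4998) and *AKR1B10* (0.469). There *TXNRD1* overlapped *NQO1*, and *NQO1* overlapped *SRXN1*. *TXN* thus stood at the top in both lines and the aldo-keto reductases at the bottom, where *AKR1C1* rested on 3 and 10 counts with DMSO in TPC1 and on 328 and 389 in K1.

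**Figure D2:**
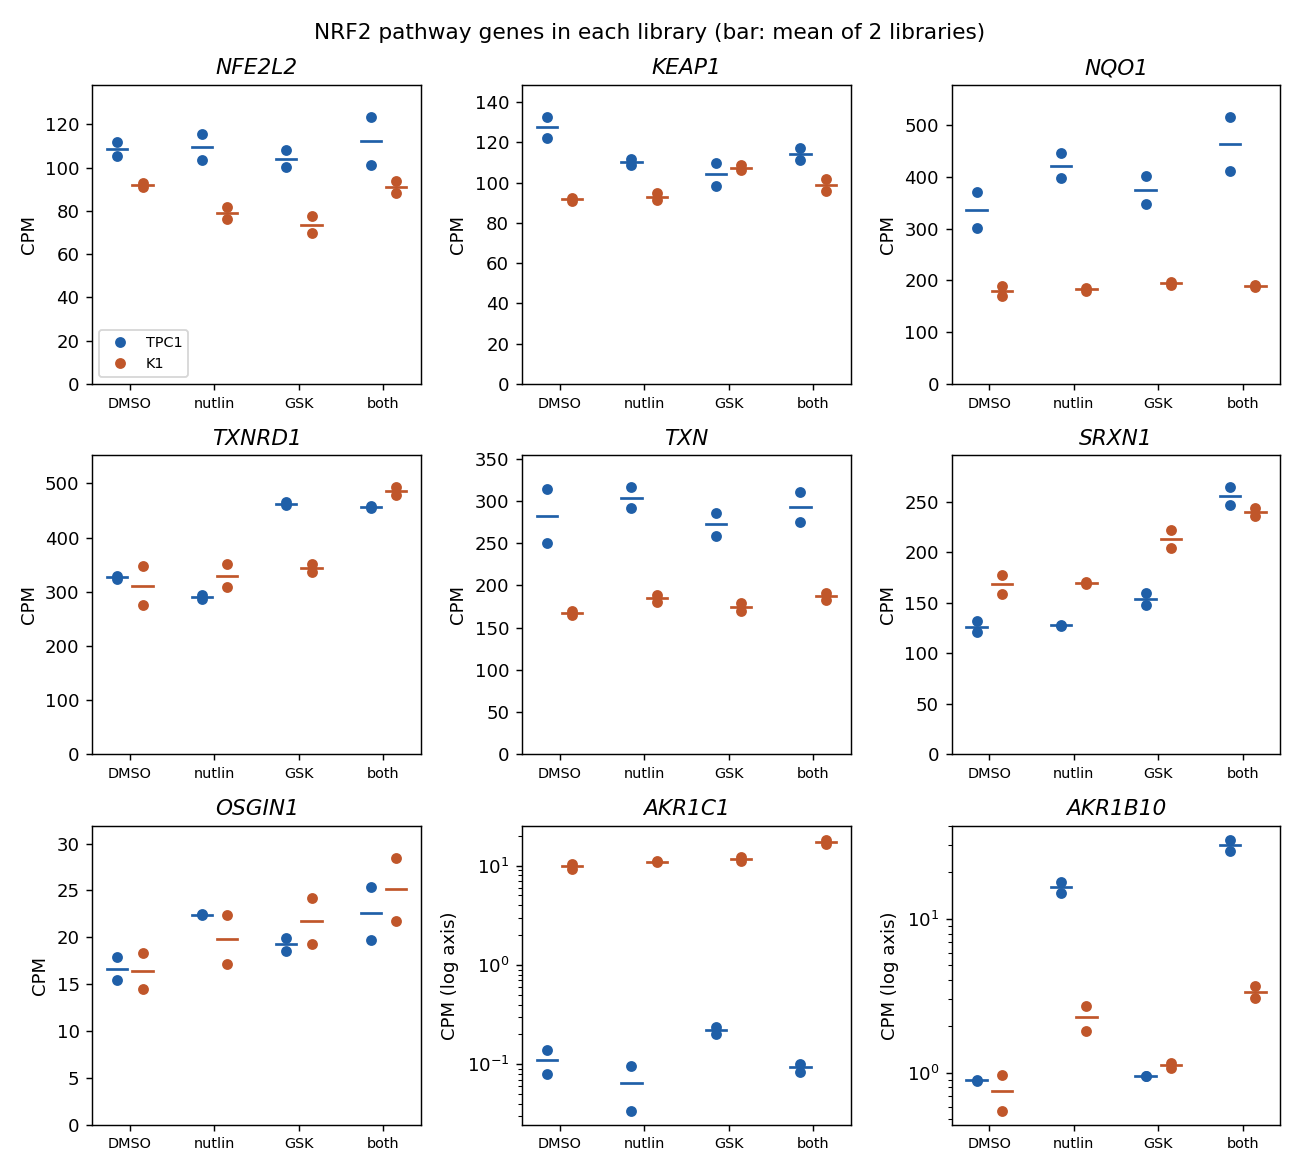
CPM of each gene in each library (y axis, logarithmic for *AKR1C1* and *AKR1B10*, from 0 for the others) by treatment (x axis; GSK is GSK2830371, both is the combination), with points for libraries and bars for the mean of 2. *AKR1B10* with nutlin and with both drugs, and *SRXN1* with both, stand above DMSO in both lines, while *NFE2L2* and *KEAP1* stay within 69.7 to 133 CPM.

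*NFE2L2* (chr2:178083395-178257484, minus strand) encodes NRF2 itself. In TPC1 its level was 106 and 112 CPM with DMSO, 104 and 115 with nutlin, 100.2 and 108 with GSK2830371, and 101 and 123 with both drugs. These libraries overlapped across all 4 treatments. K1 libraries held 93.0 and 90.9 CPM with DMSO, 81.6 and 76.1 with nutlin, 69.7 and 77.6 with GSK2830371, and 88.5 and 93.7 with both drugs. Both single drugs were thus below DMSO in K1 and the combination was not. In K1 the log2 fold change was −0.22 ± 0.0639 with nutlin (edgeR adjusted p = 0.018) and −0.32 ± 0.0640 with GSK2830371 (adjusted p = 0.00392), both under 1.5-fold and not called. With both drugs it was −0.01 ± 0.0634 (adjusted p = 0.894). The interaction, that is the combination less the sum of the single drugs, was 0.53 ± 0.0906 (edgeR adjusted p = 0.0087), short of 1.5-fold. Without the second K1 library treated with GSK2830371 it was 0.61 and passed.

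*KEAP1* (chr19:10596801-10614234, minus strand) encodes the adaptor that holds NRF2 in check. Its level in TPC1 was 122 and 133 CPM with DMSO, 109 and 112 with nutlin, 98.2 and 109.9 with GSK2830371, and 111 and 117 with both drugs, so every treated library was below the DMSO libraries. K1 libraries gave 91.0 and 92.2 CPM with DMSO, 91.2 and 94.7 with nutlin, 108 and 106 with GSK2830371, and 102 and 95.8 with both. There the GSK2830371 libraries were the highest. Log2 fold changes were −0.24 ± 0.0755 with nutlin in TPC1 (edgeR adjusted p = 0.0217) and 0.23 ± 0.0538 with GSK2830371 in K1 (adjusted p = 0.00951), neither past 1.5-fold. The response to GSK2830371 differed between the lines by 0.52 ± 0.102, K1 less TPC1 (edgeR adjusted p = 0.015), again under 1.5-fold. No comparison within a line called *NFE2L2* or *KEAP1*.

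*SRXN1* encodes sulfiredoxin, which restores peroxiredoxins that peroxide has over-oxidised. TPC1 libraries gave 121 and 132 CPM with DMSO, 127 and 128 with nutlin, 148 and 159.6 with GSK2830371, and 264 and 247 with both drugs. The combination libraries were well above all others and the nutlin libraries lay between those of DMSO. The log2 fold change was 0.99 ± 0.0748 for the combination against DMSO (edgeR adjusted p = 3.57e-06), 1.01 ± 0.0749 against nutlin (adjusted p = 5.67e-05) and 0.70 ± 0.0747 against GSK2830371 (adjusted p = 4.07e-05). Nutlin alone gave −0.02 ± 0.0750 and GSK2830371 alone 0.29 ± 0.0749 (adjusted p = 0.0751). The sum of the single drugs was 0.27, and the interaction was 0.72 ± 0.106 (edgeR adjusted p = 0.00529). *SRXN1* was the member whose interaction was called in TPC1 in the main fit.

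In K1 *SRXN1* was 159 and 178 CPM with DMSO, 171 and 169 with nutlin, 222 and 205 with GSK2830371, and 243 and 236 with both drugs. GSK2830371 libraries were above DMSO, and those of the combination were higher still. The log2 fold changes were 0.34 ± 0.0620 with GSK2830371 (edgeR adjusted p = 0.00241) and 0.51 ± 0.0618 with both drugs (adjusted p = 1.67e-05), both under 1.5-fold. Without the second K1 DMSO library the combination gave 0.59 and passed. The interaction in K1 was 0.16 ± 0.0877 (adjusted p = 0.306). The gain of the combination over nutlin was smaller in K1 by 0.50 ± 0.108 (edgeR adjusted p = 0.00852), a difference under 1.5-fold.

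*TXNRD1* encodes the cytosolic thioredoxin reductase, which reduces thioredoxin with NADPH. Its TPC1 level was 324 and 329 CPM with DMSO, 286 and 294 with nutlin, 465 and 460.1 with GSK2830371, and 455 and 459 with both drugs. These libraries fell into a low pair with nutlin, a middle pair with DMSO and 4 high libraries with GSK2830371, with or without nutlin. GSK2830371 alone gave a log2 fold change of 0.50 ± 0.0688 (edgeR adjusted p = 0.011) and both drugs gave 0.46 ± 0.0688 (adjusted p = 3.23e-04), short of 1.5-fold. Against nutlin the combination raised it by 0.66 ± 0.0688 (edgeR adjusted p = 2.9e-04), and against GSK2830371 the difference was −0.05, with a 95% interval from −0.20 to 0.11.

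In K1 *TXNRD1* was 275 and 347 CPM with DMSO, 351 and 308 with nutlin, 352 and 337 with GSK2830371, and 479 and 492 with both drugs. Here the high level was seen with both drugs, and libraries of the other treatments overlapped. The combination raised it by 0.64 ± 0.0895 against DMSO (edgeR adjusted p = 5.97e-05), and without the first K1 DMSO library this was 0.48 and no longer called. Against nutlin it gained 0.56 ± 0.0896 (adjusted p = 0.00159), just under 1.5-fold, which became 0.66 and called without the first K1 nutlin library. The interaction was 0.42 ± 0.127 (edgeR adjusted p = 0.0615). The effect of GSK2830371 alone differed between the lines by −0.36 ± 0.130, K1 less TPC1, which did not pass (adjusted p = 0.125).

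*TXN* (chr9:113006090-113018787, minus strand) encodes thioredoxin, the protein that TXNRD1 reduces. It was 251 and 314 CPM with DMSO, 291 and 316 with nutlin, 259 and 286 with GSK2830371, and 275 and 311 with both drugs in TPC1, all overlapping. Its K1 level was 164 and 169.9 CPM with DMSO, 180.5 and 189 with nutlin, 179 and 169 with GSK2830371, and 191 and 183 with both. The log2 fold change of the combination was 0.03 ± 0.106 in TPC1 and 0.16 ± 0.0538 in K1 (edgeR adjusted p = 0.0253). The 95% interval reached at most 0.27 in TPC1 and 0.28 in K1, so a change of 1.5-fold was outside both.

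*NQO1* encodes the quinone reductase most often used as a readout of NRF2. TPC1 libraries held it at 301 and 370.2 CPM with DMSO, 397 and 446 with nutlin, 347 and 402 with GSK2830371, and 410.4 and 516 with both drugs. Nutlin and the combination were above DMSO, and library 3 of each treatment was above library 1. Its log2 fold change with both drugs was 0.44 ± 0.128 (edgeR adjusted p = 0.0144), not past 1.5-fold, and 0.59 and called without the first TPC1 combination library. K1 libraries held it at 169 and 189 CPM with DMSO, 179.6 and 185 with nutlin, 198 and 191 with GSK2830371, and 192 and 187 with both. The log2 fold change with both drugs in K1 was 0.08 ± 0.0583, with a 95% interval from −0.04 to 0.21. The combination responses of the lines differed by −0.38 ± 0.161 (K1 less TPC1), which did not pass (adjusted p = 0.0738).

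*OSGIN1* encodes oxidative stress induced growth inhibitor 1. Levels in TPC1 were 15.5 and 17.9 CPM with DMSO, 22.5 and 22.3 with nutlin, 18.5 and 19.96 with GSK2830371, and 25.4 and 19.8 with both drugs, each treated library above both of DMSO. Levels in K1 were 14.4 and 18.3 CPM with DMSO, 22.4 and 17.1 with nutlin, 24.2 and 19.3 with GSK2830371, and 28.5 and 21.8 with both, and library 1 was the higher of each treated pair. In TPC1 the log2 fold change was 0.39 ± 0.122 with nutlin (edgeR adjusted p = 0.0227) and 0.40 ± 0.121 with both drugs (adjusted p = 0.0165), under 1.5-fold. In K1 the combination raised it by 0.61 ± 0.156 (edgeR adjusted p = 0.00583). That call was lost without the first K1 DMSO library (0.45) and without the first K1 combination library (0.41).

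*AKR1B10* (chr7:134212319-134226164, plus strand) encodes an aldo-keto reductase that reduces retinal and reactive aldehydes. In TPC1 it was 0.898 and 0.882 CPM with DMSO, 14.7 and 17.4 with nutlin, 0.955 and 0.942 with GSK2830371, and 27.6 and 32.7 with both drugs, from 32 to 1926 counts. Nutlin brought it from near 1 CPM to over 10, and both drugs brought it higher. Nutlin raised it by 4.15 ± 0.162 on the log2 scale, or 17.7-fold (edgeR adjusted p = 4.15e-08). The combination raised it by 5.06 ± 0.160, or 33.4-fold (adjusted p = 8.82e-09), and by 0.91 ± 0.111 over nutlin (adjusted p = 6.46e-04). GSK2830371 alone gave 0.09 ± 0.196 (adjusted p = 0.834). The interaction was 0.82 ± 0.226 and not called (edgeR adjusted p = 0.0573). Same-numbered libraries of TPC1 deviated jointly from their group means, and with the number as a block the interaction was 0.83 and called (adjusted p = 0.00931).

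In K1 *AKR1B10* was 0.959 and 0.560 CPM with DMSO, 2.71 and 1.87 with nutlin, 1.07 and 1.15 with GSK2830371, and 3.03 and 3.65 with both drugs, from 21 to 122 counts. All nutlin-treated libraries were above the others. Nutlin raised it by 1.59 ± 0.288, or 3.004-fold (edgeR adjusted p = 6.47e-04), and the combination by 2.14 ± 0.276, or 4.41-fold (adjusted p = 1.5e-05). The gain of the combination over nutlin, 0.55 ± 0.219, did not pass (adjusted p = 0.122). Starting levels of the lines differed by −0.23 ± 0.284 (adjusted p = 0.478). The nutlin response was smaller in K1 (K1 less TPC1 −2.59 ± 0.338 on the log2 scale, edgeR adjusted p = 3.34e-05), and the combination response differed by −2.94 ± 0.328 (adjusted p = 4.99e-06). *CDKN1A* differed the same way, by −2.48 with nutlin.

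*AKR1C1* (chr10:5005445-5025475, plus strand) encodes a related reductase of ketosteroids and aldehydes. Counts in the 8 TPC1 libraries ran from 1 to 16, or from 0.0337 to 0.239 CPM, too few for a fold change to be read. In K1 it was 9.25 and 10.4 CPM with DMSO, 10.99 and 10.87 with nutlin, 11.1 and 12.2 with GSK2830371, and 16.6 and 18.3 with both drugs. The combination libraries stood apart from the other 6. The combination raised *AKR1C1* in K1 by 0.83 ± 0.0939 against DMSO (edgeR adjusted p = 8.34e-06), by 0.68 ± 0.0947 against nutlin (adjusted p = 6.09e-04) and by 0.59 ± 0.0938 against GSK2830371 (adjusted p = 2.21e-04). The last lies at the fold threshold and was lost without the first GSK2830371 library (0.52) or the second combination library (0.52) of K1. The interaction was 0.43 ± 0.136 (adjusted p = 0.0685).

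Both reductases have near-identical copies, and reads of low mapping quality were removed before counting, so their levels are uncertain where reads fit a copy. *AKR1C2*, beside *AKR1C1* on chromosome 10, had 0 to 3 counts in TPC1 and 130 to 190 in K1, and *AKR1C4* had none. *AKR1B15*, the close relative of *AKR1B10*, had 0 to 28 counts in TPC1 and 1 to 5 in K1. *AKR1B1*, a further relative, lay between 303 and 451 CPM in all 16 libraries.

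Counted together, nutlin raised 1 of the 9 genes in TPC1 (*AKR1B10*) beside 17.5% of all genes, and 1 in K1 beside 3.84%. GSK2830371 alone called 0 in either line by edgeR, beside 1.4% of all genes in TPC1 and 2.23% in K1 in either direction, and DESeq2 also called 0. By edgeR's adjusted p alone, 1 passed in TPC1 and 3 in K1, beside 3.5% and 19.2% of all genes. At an unadjusted p under 0.05 there were 3 genes in TPC1 and 5 in K1. Counts at an unadjusted p, here and below, have no share of all genes beside them. The combination raised 2 of 9 in TPC1 (*AKR1B10* and *SRXN1*) beside 22.5%, and 4 of 9 in K1 (*TXNRD1*, *OSGIN1*, *AKR1C1* and *AKR1B10*) beside 7.62%. Against nutlin it raised 3 of 9 in TPC1 (*TXNRD1*, *SRXN1* and *AKR1B10*) beside 6.46%, and 1 in K1 (*AKR1C1*) beside 1.16%. Against GSK2830371 it raised 2 in TPC1 (*SRXN1* and *AKR1B10*) beside 19.5% and 2 in K1 (*AKR1C1* and *AKR1B10*) beside 6.3%. The interaction was called for 1 in TPC1 (*SRXN1*) beside 2.82% above zero, and for 0 in K1 beside 1.79%, with 3 in K1 at an unadjusted p under 0.05. With the replicate number as a block, *AKR1B10* was called in TPC1 too. None of the 9 was lowered in these 12 comparisons, in which 0.654% to 21.7% of all genes were. The median log2 fold change of the combination over the 9 genes was 0.40 in TPC1 and 0.51 in K1, beside 0.00 and 0.01 over all genes. In TPC1, then, the members' share for nutlin and the combination was near or below that of all genes. These comparisons share DMSO, nutlin or combination libraries.

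**Figure D3:**
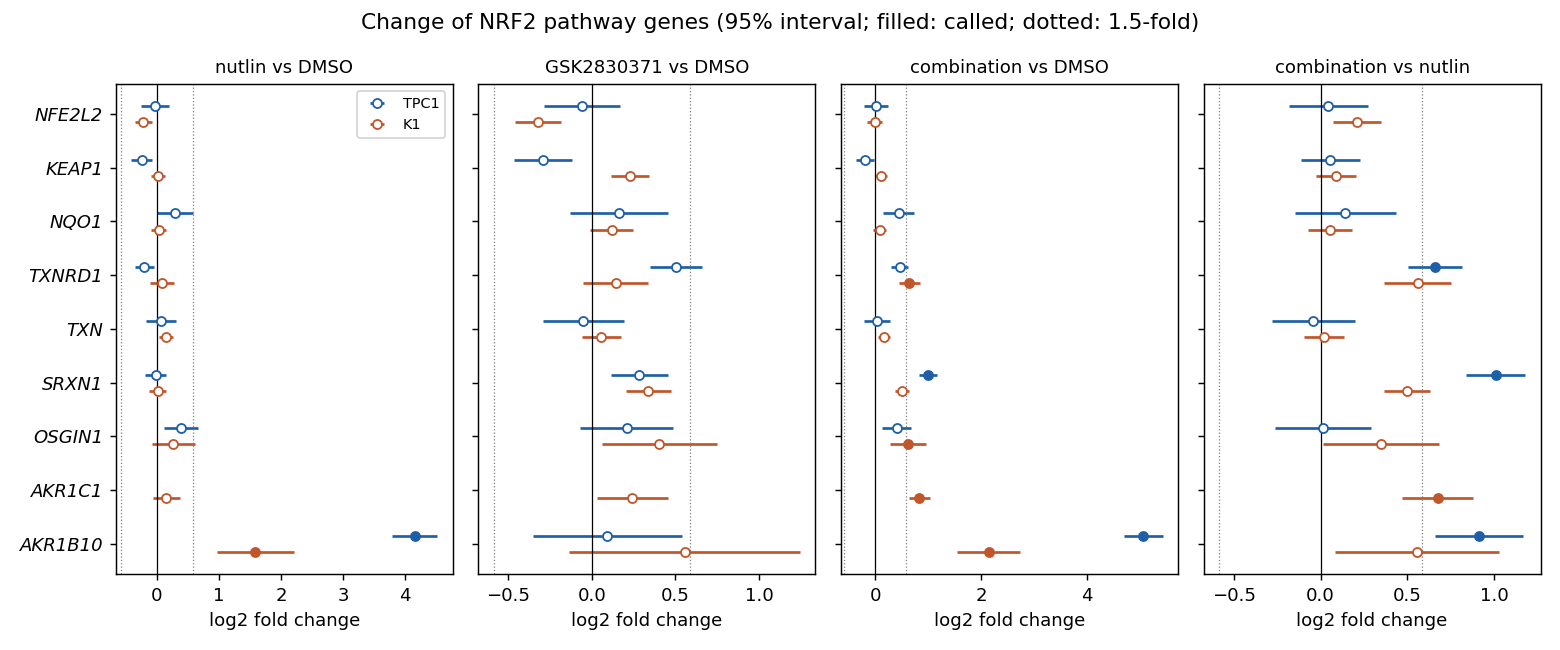
Log2 fold change (x axis) of each gene (y axis) in 4 comparisons, TPC1 in blue and K1 in orange, with 95% intervals from the edgeR fit, filled points for called genes and dotted lines at 1.5-fold. The x scales differ between panels, and *AKR1C1* in TPC1 is left out for its low counts. No filled point lies below zero.

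The drugs alone were also added and set beside the combination. For *SRXN1* in TPC1 the sum was 0.27 and the combination 0.99. In K1 the sum was 0.23 against 0.64 for *TXNRD1* and 0.40 against 0.83 for *AKR1C1*, and −0.54 against −0.01 for *NFE2L2*. For *AKR1B10* in K1 the sum and the combination were both 2.14, whereas in TPC1 they were 4.24 and 5.06. *NQO1* gave 0.46 and 0.44 in TPC1, and *OSGIN1* in K1 gave 0.67 and 0.61. In TPC1 *KEAP1* gave −0.53 and −0.19, and *OSGIN1* gave 0.60 and 0.40. Of these gaps, the main fit called that of *SRXN1* in TPC1. Those of *TXNRD1* and *AKR1C1* in K1 and of *AKR1B10* and *KEAP1* in TPC1 did not pass the adjusted p. That of *NFE2L2* in K1 passed it but was under 1.5-fold.

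**Figure D4:**
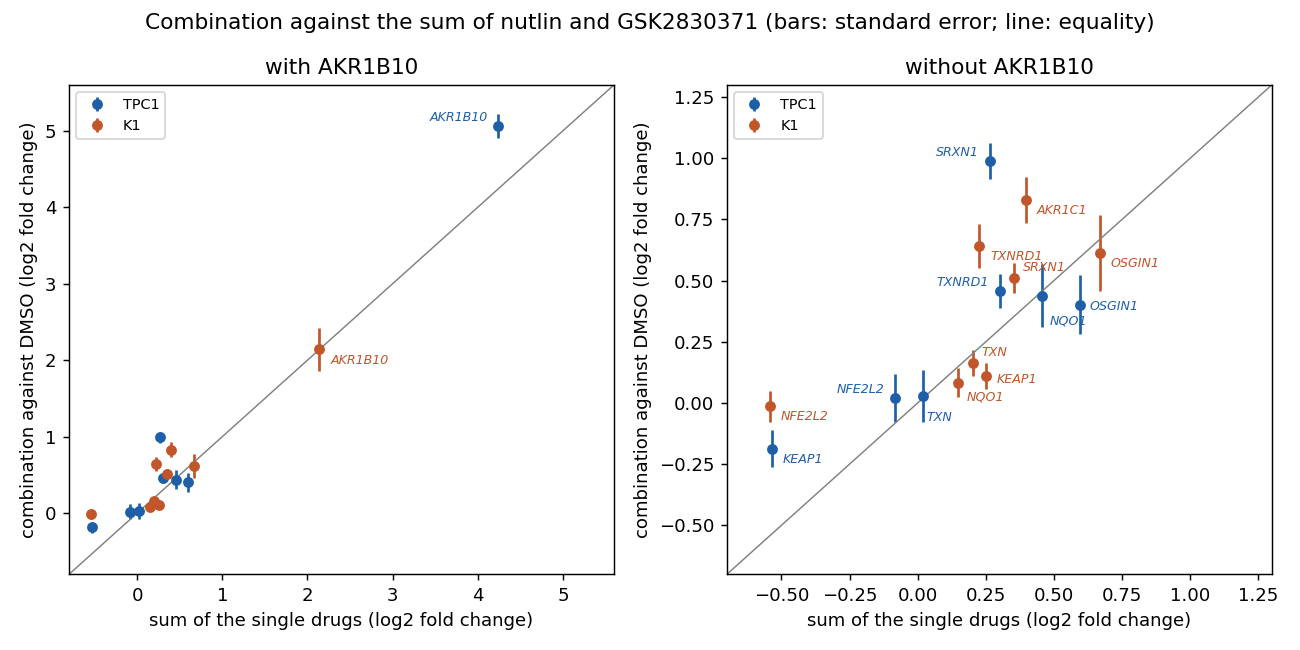
Combination against DMSO (y axis) and the sum of nutlin and GSK2830371 (x axis), both as log2 fold changes, for each gene in TPC1 (blue) and K1 (orange), with the standard error of the combination as bars and the line of equality. The right panel leaves out *AKR1B10*, and *AKR1C1* in TPC1 is in neither. *SRXN1* in TPC1 stands 0.72 above the line.

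With DMSO, the lines differed in the level of 3 of the 9 genes. *NQO1* was lower in K1 by 0.91 ± 0.114 on the log2 scale (K1 less TPC1 −0.91, edgeR adjusted p = 2.52e-06) and *TXN* differed by −0.76 ± 0.0964 (adjusted p = 3.01e-06), while *AKR1C1* was higher in K1 (adjusted p = 1.46e-13). For *AKR1C1* the DMSO libraries held 9.25 and 10.4 CPM in K1 against 0.0792 and 0.13999 CPM in TPC1, where 3 and 10 counts are too few for the size of the difference to be read. Of all genes, 25% were higher and 21.2% lower in K1. *SRXN1* was higher in K1 by 0.41 ± 0.0766, *KEAP1* differed by −0.48 ± 0.0722 and *NFE2L2* by −0.24 ± 0.0926, all past the adjusted p but under 1.5-fold. The lines differ in their medium, which cannot be told apart from the line. For the response to nutlin, 1 of 9 differed between the lines (*AKR1B10*, lower in K1, beside 10.5% of all genes lower there), and for the combination 1 of 9 (*AKR1B10*, beside 13.8%). For GSK2830371, and for the gain of the combination over nutlin, edgeR called 0 of 9, beside 2.18% and 5.11% of all genes in either direction, with 2 and 1 at an unadjusted p under 0.05.

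Other genes of the pathway were followed in 3 lists. Of 12 partners and regulators of NRF2, 2 were raised and 1 was lowered by nutlin in TPC1, where 17.5% of all genes were raised and 18% lowered. In K1 edgeR called 0 of 12 with nutlin, with 5 at an unadjusted p under 0.05, beside 3.84% raised and 5.43% lowered of all genes. Both drugs raised 4 and lowered 1 in TPC1 (22.5% and 21.7% of all genes), and raised 1 of 12 in K1, near the 7.62% of all genes raised there. *SQSTM1* encodes p62, which captures KEAP1 for autophagy. Its mean was 820.2 CPM with DMSO, 1927 with nutlin, 1495 with GSK2830371 and 2251 with both drugs in TPC1, with log2 fold changes of 1.20 ± 0.139, 0.87 ± 0.139 and 1.43 ± 0.139 (edgeR adjusted p = 8.68e-05, 0.0197 and 2.04e-05). It was the regulator raised by GSK2830371 alone in TPC1. *GSK3B*, a kinase that marks NRF2 for a second ubiquitin ligase, was raised by 1.03 ± 0.0993 with nutlin and 1.07 ± 0.0993 with both drugs in TPC1. *RBX1*, the RING subunit of the CUL3 ligase, was lowered by the combination in TPC1 (−0.66 ± 0.121).

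*MAFF*, a small MAF partner, was lowered by nutlin in TPC1 (−0.94 ± 0.0993) and was higher with both drugs than with nutlin (0.82 ± 0.0999). *NFE2L1*, a relative of NRF2 that drives proteasome genes, gained 0.68 ± 0.1003 with the combination over nutlin in TPC1 (edgeR adjusted p = 0.00165), with an interaction of 0.60 ± 0.142 (adjusted p = 0.0363). In K1 *MAFK*, another small MAF, was raised by both drugs (0.66 ± 0.0681), and *BACH1*, a repressor that competes at the same elements, had an interaction of 0.69 ± 0.123 (adjusted p = 0.00953). Its K1 mean was 30.3 CPM with DMSO, 28.6 with nutlin, 20.5 with GSK2830371 and 31.1 with both drugs.

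Of 28 further NRF2 targets, 25 were tested in TPC1 and 26 in K1. In TPC1, 8 were raised and 2 lowered by nutlin, beside 17.5% and 18% of all genes, and 10 were raised and 5 lowered by both drugs, beside 22.5% and 21.7%. In K1 the numbers were 2 and 1 with nutlin, beside 3.84% and 5.43% of all genes, and both drugs raised 7, beside 7.62% raised and 8.09% lowered of all genes. GSK2830371 alone raised 1 in each line, beside 0.72% of all genes in TPC1 and 0.736% in K1. Their median log2 fold change with both drugs was 0.20 in TPC1 and 0.23 in K1. With both drugs against DMSO, then, calls went both ways in TPC1, and those in K1 were increases.

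*SLC7A11*, the cystine transporter that supplies glutathione synthesis, fell with nutlin and rose with both drugs in each line. In TPC1 it was 48.2 and 29.4 CPM with DMSO, 20.3 and 16.9 with nutlin, 79.2 and 66.7 with GSK2830371, and 126 and 111 with both. In K1 it was 36.1 and 45.5 CPM with DMSO, 34.7 and 16.6 with nutlin, 34.4 and 32.7 with GSK2830371, and 94.3 and 111 with both. Its log2 fold change with nutlin was −1.10 ± 0.224 in TPC1 (edgeR adjusted p = 0.0026) and −0.68 ± 0.222 in K1 (adjusted p = 0.0337). The combination over nutlin gave 2.69 ± 0.222 in TPC1 and 2.01 ± 0.216 in K1, and the interaction 1.77 ± 0.310 (adjusted p = 0.0124) and 2.30 ± 0.306 (adjusted p = 0.00362). *GCLM*, the modifier subunit of glutamate-cysteine ligase, was lowered by nutlin in TPC1 (−0.77 ± 0.0796).

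*HMOX1*, heme oxygenase 1, was the further target raised by GSK2830371 alone in TPC1 (2.04 ± 0.225, edgeR adjusted p = 0.00499). With both drugs it gave 2.33 ± 0.225 from libraries of 905 and 493 CPM, and an interaction of −1.45 ± 0.318 (adjusted p = 0.027), opposite in sign to that of *SRXN1*. The mean of *HMOX1* in TPC1 was 137 CPM with DMSO, 469 with nutlin and 561 with GSK2830371. In K1 it was 502 CPM with DMSO, 500 with nutlin, 754 with GSK2830371 and 797 with both drugs. *CYP4F11*, a fatty acid hydroxylase, was raised by nutlin (2.93 ± 0.315) and more by both drugs (4.81 ± 0.303) in TPC1, from a mean of 0.224 CPM with DMSO to 6.34 with both. In K1 it started at 24.5 CPM and was raised by both drugs to 55.7 (1.18 ± 0.0651). *SLC48A1*, a heme transporter, was raised by nutlin in TPC1 (2.31 ± 0.1003) and by GSK2830371 in K1 (0.59 ± 0.0694). The latter lies at the fold threshold (1.502-fold). Its mean with DMSO and with GSK2830371 was 38.9 and 58.5 CPM in K1, and 48.7 and 70.8 CPM in TPC1, not called there. *ABCB6* and *ABCC2*, membrane transporters, were raised by nutlin in K1 (0.74 ± 0.0937 and 0.92 ± 0.279). The mean of *ABCB6* with DMSO and with nutlin was 12.6 and 21.1 CPM in K1, and 40.3 and 107 CPM in TPC1. That of *ABCC2* was 0.683 and 1.31 CPM in K1, from 21 to 44 counts, and 2.18 and 3.49 CPM in TPC1. *CBR1*, a carbonyl reductase, and *AKR1C3*, a relative of *AKR1C1*, were lowered by the combination in TPC1 (−0.96 ± 0.0888 and −0.81 ± 0.149). *TRIM16L* had an interaction of 0.74 ± 0.162 in TPC1 (adjusted p = 0.0261).

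Of 11 genes of the thioredoxin, glutaredoxin and peroxiredoxin system outside the 9, 2 were raised and 2 lowered in TPC1 both by nutlin (17.5% and 18% of all genes) and by the combination (22.5% and 21.7%), near or under the shares of all genes. In K1, 1 was raised by nutlin (3.84% of all genes), and 2 were raised and 1 was lowered by both drugs (7.62% and 8.09%). *TXNIP*, which binds and inhibits thioredoxin, was raised by nutlin (1.25 ± 0.106) and both drugs (1.58 ± 0.106) in TPC1, with an interaction of 0.80 ± 0.151 (edgeR adjusted p = 0.0159). In K1 it was raised by nutlin (0.60 ± 0.0824), GSK2830371 (0.65 ± 0.0821) and both (1.14 ± 0.0797). *TXNRD2*, the mitochondrial reductase, was lowered by the combination in both lines (−0.65 ± 0.0903 in TPC1 and −0.63 ± 0.116 in K1). *PRDX3*, a mitochondrial peroxiredoxin, was lowered (−0.72 ± 0.0924) and *PRDX5* raised (0.72 ± 0.0751) by both drugs in TPC1. *GLRX*, a glutaredoxin, was raised by both drugs in K1 (0.69 ± 0.0584) and was lower with both drugs than with nutlin in TPC1 (−0.59 ± 0.154). The latter lies at the fold threshold (1.50007-fold). *GLRX2* was lowered by nutlin in TPC1 (−0.68 ± 0.0913).

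**Figure D5:**
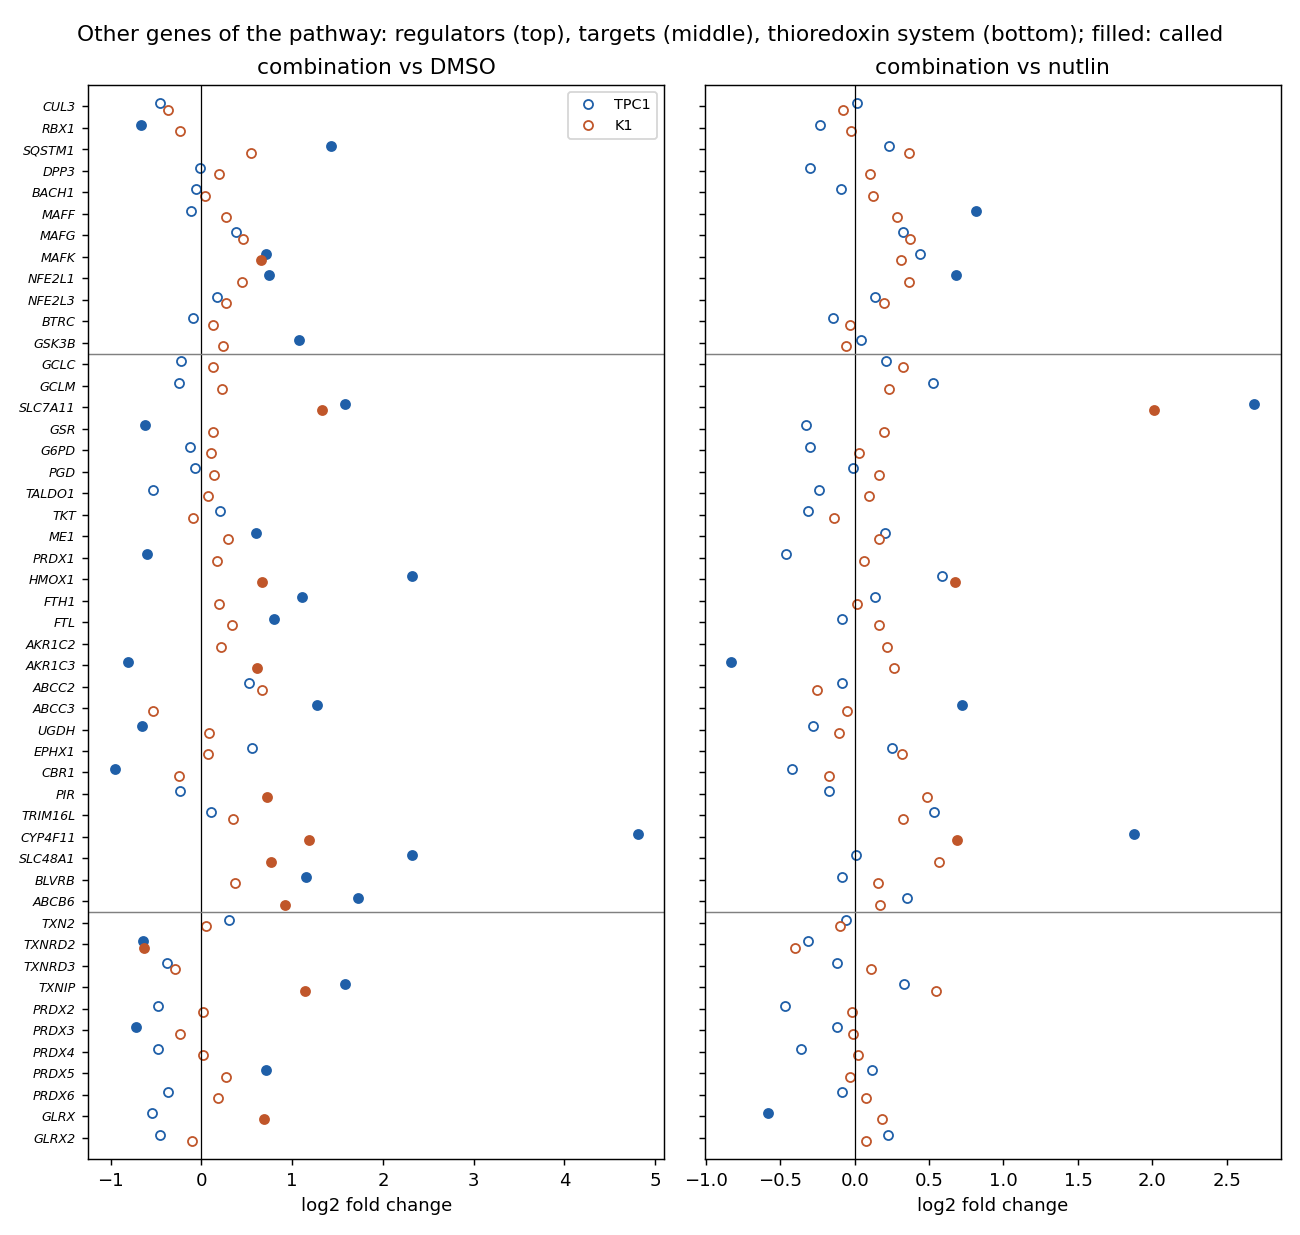
Log2 fold change (x axis) of the other pathway genes (y axis) for the combination against DMSO and against nutlin, in TPC1 (blue) and K1 (orange), filled where called. Regulators stand at the top, further targets in the middle and the thioredoxin system at the bottom. *SLC7A11* lies at 2.69 and 2.01 in the right panel.

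The pattern of each gene over the 16 libraries was set beside those of 9836 genes whose mean reached 5 CPM in each line, by the correlation of log2(CPM + 1) after centring each line on its mean. These correlations describe libraries that share treatments and depth, and carry no p. *TXNRD1* was most like *EPRS*, a tRNA synthetase (r = 0.913), *CTH*, the cystathionine lyase (0.910), and *SLC7A11* (0.897). *SRXN1* was most like *C2CD2L* (0.973), *TMBIM6* (0.964) and *PDSS2* (0.954). *AKR1B10* was most like *INPP1*, *SLC35D1* and *PRKAB2* (each 0.994 or 0.993).

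For the other genes the nearest pattern was *CRNKL1* for *NFE2L2* (0.904), *ZNF263* for *KEAP1* (0.830), *MRPL45* for *NQO1* (0.956), *CNPY2* for *TXN* (0.939), *ATP6V0B* for *OSGIN1* (0.845) and *ABHD3* for *AKR1C1* (0.918). None of the 9 was the nearest to another of them. Among themselves, the correlation over the 16 libraries was 0.755 between *TXNRD1* and *SRXN1*, 0.740 between *TXNRD1* and *AKR1C1*, 0.714 between *NQO1* and *AKR1B10*, and 0.683 between *NQO1* and *TXN*. *AKR1C1* was at 0.0337 to 0.239 CPM in TPC1, so its correlations over the 16 libraries rest mainly on K1. *NFE2L2* lay between −0.158 and 0.267 with the other 8, and −0.117 with *KEAP1*, but with some partners the lines differed in sign. Within the 8 libraries of a line *NFE2L2* gave 0.472 in TPC1 and −0.619 in K1 with *KEAP1*, 0.680 and −0.503 with *NQO1*, and 0.756 and −0.197 with *TXN*. In K1 alone (8 libraries) *TXNRD1* and *AKR1C1* reached 0.951, while in TPC1 *NQO1* and *AKR1B10* reached 0.771 against 0.0420 in K1.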

How the data were processed

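Per the labels and the study's methods, the authors mapped stranded single-end reads to GRCh37 with TopHat2 2.0.13, discarded those of low mapping quality and tallied the rest per gene and strand with HTSeq 0.6.1. Each deposited value is thus a raw count with no normalization. No count at all was found for 4539 of the 25369 genes. All columns served. TPC1 columns numbered 3, a number absent from the sample labels, were assigned to a treatment without naming a sample.

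The tools were R 4.3.3 with edgeR 4.0.16 (main test), limma 3.58.1 and DESeq2 1.42.0 (alternative), and Python 3.11.15 for sequences and plots. A gene entered a fit where 2 or more of its libraries exceeded 0.1 CPM, which kept 15273 for TPC1, 15900 for K1 and 16738 for both lines. The 8 libraries of a line were fitted jointly with TMM, and all 16 for differences between lines. Intervals are at 95%. The variance between replicates was 11.6 to 48.3 times counting error for TPC1 and 4.96 to 8.16 times for K1. The steps were tested on simulated data.

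Pairing by replicate number was checked by correlating deviations from group means across genes. In TPC1 all 6 pairs of treatments gave 0.518 to 0.724 over 12318 genes, so the numbers were taken to pair the libraries, and a blocked value is given where it changes a call. TPC1 libraries numbered 3 held 62853375 to 76648552 counts and those numbered 1 held 30789887 to 36896529. A shared preparation thus cannot be told apart from depth there.

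All 9 genes were named, and from 3 lists (12, 28 and 11 genes) the 2 largest called increases and decreases per line, at 1 CPM or more in the higher group, under nutlin, GSK2830371 or both against DMSO, under both against nutlin, and for the interaction. *CDKN1A* was named as the check of nutlin, *AKR1C2*, *AKR1C4*, *AKR1B15* and *AKR1B1* were added as relatives, and the 3 genes of most like pattern came from Pearson's correlation. The members and lists were chosen with earlier results of these data known. Alternatives changed scaling, filter, tool, samples in the fit, replicate block or GC and length correction (chosen after seeing the data), or left out 1 library. They were read for the 9 genes and not for the genes of the 3 lists.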

Additional observations from a re-analysis of the deposited data

Results flagged for a closer look

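*AKR1B10* responded differently in the 2 lines by a test of the difference itself in the fit of all 16 libraries. The log2 fold change with nutlin was lower in K1 than in TPC1 (difference −2.59, edgeR adjusted p = 3.34e-05), as was that with both drugs (difference −2.94, adjusted p = 4.99e-06). Over 24 alternatives these differences ran from −2.94 to −2.16 and from −3.29 to −2.51, called in each. All 4 libraries with nutlin were above both DMSO libraries in each line, so the lines differ in size and not in direction. Both comparisons rest on the same DMSO libraries, with 21 to 122 counts of *AKR1B10* in the 8 K1 libraries. The medium differs with the line and cannot be told apart from it.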

How the results depend on the processing

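Of 22 calls among the 9 genes, 19 held under every alternative run, and none reversed. *TXNRD1* and *OSGIN1* for the combination in K1, and *AKR1C1* for the combination against GSK2830371 in K1 (0.49 after the GC and length correction), fell under 1.5-fold in those the report names. The interaction in TPC1 was called for 2 genes in place of 1 with DESeq2 size factors, no filter, DESeq2's Wald test, the replicate block, the GC and length correction, and that correction with the block. *AKR1B10* was the gene added. Library size alone called 2 genes in place of 1 for the combination against nutlin in K1, and the GC and length correction, with or without the replicate block, called 1 in place of 2 for the combination against GSK2830371 in K1. The cause was not tested. The correction had values for 87.1% of genes in TPC1 and 86.8% in K1.

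Without any 1 library, with the remaining library of that group taken to vary as other groups do, the number called ran from 1 to 2 for the interaction in TPC1, from 2 to 5 for the combination against DMSO in K1 and from 2 to 3 in TPC1, from 1 to 2 for the combination against nutlin and against GSK2830371 in K1, from 0 to 1 for the interaction in K1, from 0 to 1 for the difference between lines in the GSK2830371 effect (*KEAP1*, 0.61 without TPC1 GSK2830371 library 3), and from 1 to 2 for that in the combination effect (*SRXN1*, −0.59 without TPC1 combination library 3).

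In K1 the deviations of libraries with the same number correlated from 0.148 to 0.408 between treated groups and from −0.387 to −0.309 with DMSO, over 12531 genes, so as labelled they share only a number. With the numbers of the K1 DMSO libraries swapped, a pairing chosen after seeing the data, the block left the number called among the 9 genes as it was in all 6 comparisons, and over all genes it moved from 388 to 543 for the interaction and from 355 to 443 for GSK2830371 against DMSO. The block as labelled changed no call there, and in TPC1 it changed no other call. Depth limits *AKR1C1* in TPC1 and *AKR1B10* in K1.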
